A study of Mus musculus with 12 samples.

Results

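The genes described here set the local balance between pyrophosphate and phosphate in mineralizing matrix. They are Alpl, Enpp1, Ank, Slc20a1, Slc20a2, Smpd3 and Phospho1, 7 of the 35214 genes in the annotation, taken by name for their roles, with earlier results of these data known. All 7 passed the filter on low counts, which 12542 genes passed. They were measured in Ocy454, a conditionally immortalized mouse osteocyte-like cell line that proliferates at a lower temperature and differentiates at body temperature. Polyadenylated RNA was sequenced on differentiation day 7 in 4 groups of 3 libraries. After 1 h of pretreatment with the DMSO vehicle or with 200 nM BGJ398, an inhibitor of the FGF receptor kinases, cells were kept for 48 h. The DMSO group had vehicle and control medium, the DMSO+FGF2 group had vehicle and 2 ng/mL FGF2, the BGJ398 group had inhibitor and control medium, and the BGJ398+FGF2 group had inhibitor and FGF2. All groups came from 1 cell line on plastic, and the labels do not say whether replicates were separate cultures, so p-values measure the spread between libraries, which may be partly technical.

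As background, mineral forms when phosphate is available and its inhibitor, extracellular pyrophosphate, is low. Enpp1 makes pyrophosphate from ATP outside the cell and Ank promotes its supply to the outside, while Alpl, the tissue-nonspecific alkaline phosphatase held on the membrane by a lipid anchor, splits it into phosphate. Slc20a1 and Slc20a2 (PiT-1 and PiT-2) carry phosphate into cells with sodium. Phospho1 and Smpd3 act at the matrix vesicle, where Smpd3 releases phosphocholine from sphingomyelin and Phospho1 frees phosphate from phosphocholine. In bone, loss of Alpl function leaves matrix poorly mineralized and loss of Enpp1 function lowers pyrophosphate.

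Libraries held 18951710 to 27716975 reads assigned to transcripts. Of 6 osteoblast markers, Runx2 was at 90.8 to 134 CPM (read counts scaled to library size), Col1a1 at 5490 to 11100 and Col1a2 at 5100 to 9000. Sp7 was at 8.23 to 26.5 CPM. Bglap and Ibsp were low, with 167 and 279 reads over 12 libraries. Of 7 osteocyte markers, Pdpn and Irx5 were present, with 8195 and 8193 reads over 12 libraries. Phex had 116 reads, Dmp1 26, Fgf23 6, and Sost and Mepe 0, so the cells are called by the name of their line. The 6 osteoblast markers together lay at 16935 to 18030 CPM in DMSO and 10705 to 12658 in DMSO+FGF2, almost all of it from the collagen genes Col1a1 and Col1a2. The 4 macrophage markers together lay at 2.02 to 2.21 CPM in DMSO and at 5.33 to 6.78 in DMSO+FGF2, most of it Cd68, with Adgre1 at 0 reads and Ptprc at 2 reads in all. The 4 chondrocyte markers together lay at 14.2 to 14.4 CPM in DMSO and 24.0 to 25.8 in DMSO+FGF2, most of it Sox9, with 4 reads for Acan over 12 libraries. The part of these shifts in the results was not tested, and fewer cells of a type and less RNA per cell cannot be told apart. BGJ398 replicate 1, DMSO+FGF2 replicate 2 and BGJ398+FGF2 replicate 2 shared a deviation from their groups that held 22.7% of the variance within groups, and results that turn on them are given without them.

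The start regions of the pair of genes with the clearest change, Alpl and Enpp1, are shown because they carry the finding on pyrophosphate breakdown and supply. They are RefSeq windows of build GRCm38.p6, 250 bases before to 50 after a start, read 5′ to 3′ on the minus strand. Capitals mark matches on either strand to 3 motifs. The GC box was searched as GGGCGG. The motif of the RUNX factors was searched as TGTGGT. The box bound by the TATA-binding protein was searched as TATAAA. A match is a description of letters only.
Alpl upstream start, chr4:137796335-137796634: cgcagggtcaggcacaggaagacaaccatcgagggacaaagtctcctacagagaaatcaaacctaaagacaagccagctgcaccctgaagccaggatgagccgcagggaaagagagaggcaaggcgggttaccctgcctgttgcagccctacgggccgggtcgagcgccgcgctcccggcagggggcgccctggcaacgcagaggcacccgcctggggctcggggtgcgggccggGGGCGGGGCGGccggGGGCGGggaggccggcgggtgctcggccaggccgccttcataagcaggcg
Alpl downstream start, chr4:137766426-137766725: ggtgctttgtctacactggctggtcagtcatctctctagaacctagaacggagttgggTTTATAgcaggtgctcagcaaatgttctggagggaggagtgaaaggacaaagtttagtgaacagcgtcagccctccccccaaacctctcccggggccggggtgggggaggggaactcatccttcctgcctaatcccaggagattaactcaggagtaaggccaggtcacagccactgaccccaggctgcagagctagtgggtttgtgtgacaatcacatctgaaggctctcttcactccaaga
Enpp1 start, chr10:24712110-24712409: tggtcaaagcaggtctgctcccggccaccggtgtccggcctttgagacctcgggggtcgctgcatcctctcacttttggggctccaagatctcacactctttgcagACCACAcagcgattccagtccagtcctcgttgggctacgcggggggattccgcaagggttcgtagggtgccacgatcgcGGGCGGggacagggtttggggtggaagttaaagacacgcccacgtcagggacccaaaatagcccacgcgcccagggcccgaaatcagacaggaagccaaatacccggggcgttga
The upstream Alpl window held 3 GC boxes, the first pair overlapping by 1 base, at -15, -10 and 0 bases from the start, and no RUNX or TATA box. The downstream Alpl window held 1 TATA box on the opposite strand at -192. The Enpp1 window held 1 RUNX match on the opposite strand at -144 and 1 GC box at -65. Among 32851 windows of the same length, 35.7% held a GC box, 16.8% a RUNX match and 13.6% a TATA box. The AP-1 motif TGANTCA, in 7.81% of windows, was also searched on both strands. So was the E-box CACGTG, in 7.15% of windows, and neither had a match in these 3 windows. Nearly all Alpl reads, 3192.8 of 3194.9 over 12 libraries, were assigned to the transcript that starts in the upstream window, and 0 to the transcript of the downstream start. For the other members, windows were found for Ank, Slc20a1 and Phospho1, and 5 of 7 members matched in all.

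In DMSO, on the TPM scale (transcript abundance per length within a library), the order of levels was Phospho1 at 57.2 ± 3.38 (SD, n = 3), Slc20a1 at 43.4 ± 2.98, Ank at 30.9 ± 0.845, Slc20a2 at 30.2 ± 1.07, Enpp1 at 9.48 ± 1.44, Alpl at 8.24 ± 0.37 and Smpd3 at 1.07 ± 0.23. Ank and Slc20a2 did not differ beyond their spread, nor did Enpp1 and Alpl. Alpl was therefore a gene of low abundance in these cells, with 245 to 324 reads per DMSO library, and Smpd3 lower still, with 51 to 99. Phospho1 levels are uncertain: 87.1% of its 31-base sequences also occur in transcripts of other genes, Zfp652 (with a read-through transcript) and Abi3, the latter on the opposite strand. Whether reads were counted by strand is not given in the sources used here. For the other members that share was 0% for Alpl, 1.65% for Enpp1, 1.09% for Ank, 10.9% for Slc20a1, 1.79% for Slc20a2 and 4.52% for Smpd3.

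The first comparison asks what FGF2 did to these genes in cells with working FGF receptors. FGF2 lowered Alpl and Smpd3 and raised Enpp1, Ank and Slc20a1: of the 7 genes, 3 rose and 2 fell by edgeR's quasi-likelihood test (adjusted p under 0.05, Benjamini-Hochberg over all genes), and Slc20a2 and Phospho1 did not pass. Of all genes tested, 13.4% passed, 7.57% higher and 5.82% lower. In all 7 genes the 3 DMSO and 3 DMSO+FGF2 libraries did not overlap in CPM, which held for 37.6% of all genes. The RNA of the enzyme that removes pyrophosphate thus fell while that of the enzyme that makes it and of the protein that supplies it rose. The members' median log2 fold change was 0.16, beside 0.00 over all genes.

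Alpl, the pyrophosphatase, was at 12.4, 11.8 and 11.9 CPM in the 3 DMSO libraries and at 1.29, 1.58 and 1.09 CPM in the 3 DMSO+FGF2 libraries. All DMSO+FGF2 libraries lay far under all others, on 23 to 37 reads each. Alpl fell 9.03-fold, by edgeR at -3.17 ± 0.13 on the log2 scale (± SE, adjusted p = 8.69e-09). It had rank 2 of 12542 genes by p and rank 10 among the lowest log2 fold changes. In the BGJ398 group Alpl was at 17.7, 18.5 and 20.2 CPM, and in the BGJ398+FGF2 group at 18.2, 15.8 and 18.3. These 6 libraries overlapped each other and all lay above the DMSO libraries.

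**Figure D1:**
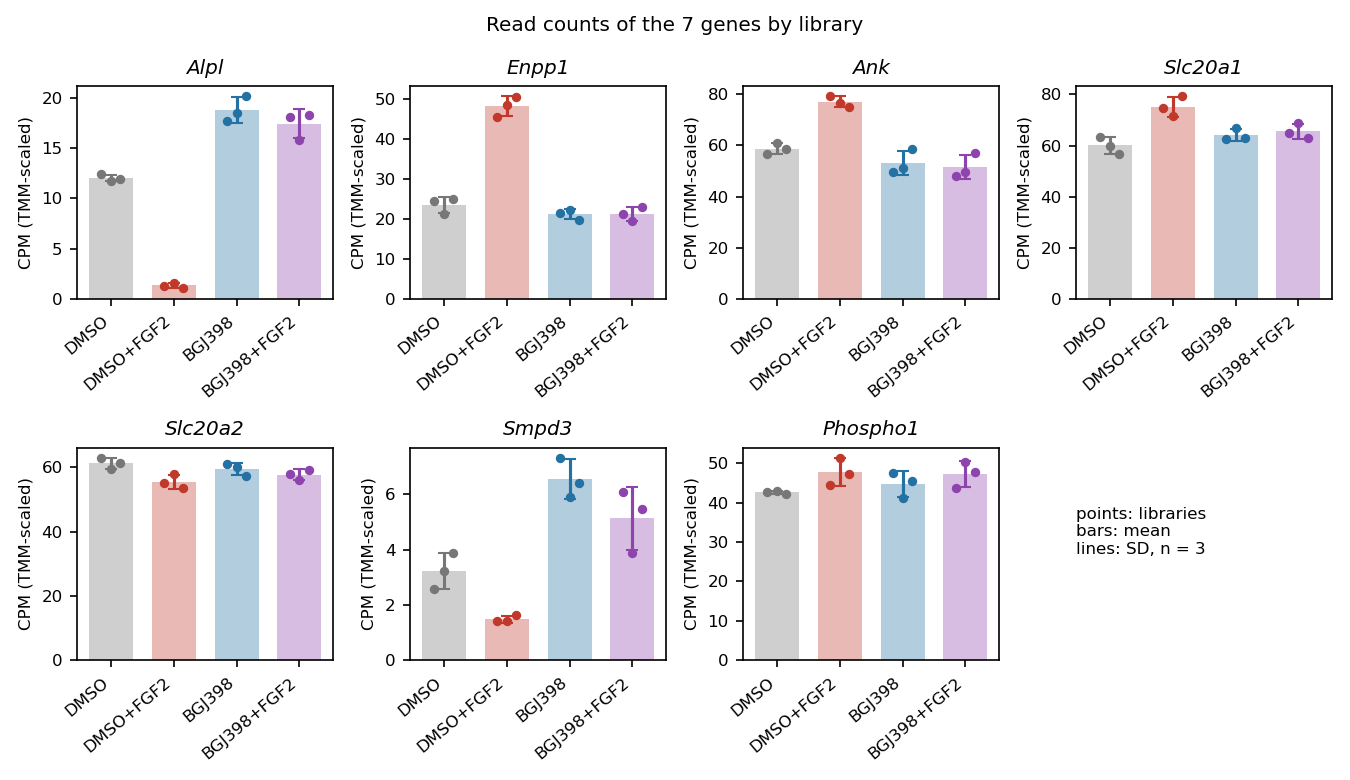
Level of each of the 7 genes in CPM (vertical axes, each from 0) in the 4 groups. Each library has a point, bars reach the mean of 3 and lines show the SD. Alpl in DMSO+FGF2, at a mean of 1.32 CPM, stands under every other library, and Enpp1 there, at a mean of 48.2 CPM, stands above every other library.

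Enpp1, the ATP-splitting enzyme that makes pyrophosphate, was at 24.4, 21.2 and 24.98 CPM in DMSO and at 45.5, 48.5 and 50.5 CPM in DMSO+FGF2. The DMSO+FGF2 libraries lay above all 9 others, which overlapped: BGJ398 was at 21.3, 22.3 and 19.8 CPM and BGJ398+FGF2 at 21.1, 19.5 and 22.8. FGF2 raised Enpp1 2.05-fold, by edgeR at 1.03 ± 0.08 on the log2 scale (adjusted p = 3.03e-06). Ank, the transporter-like membrane protein that promotes pyrophosphate supply, rose less. It was at 56.6, 61.0 and 58.6 CPM in DMSO and at 79.3, 76.7 and 75.0 CPM in DMSO+FGF2, without overlap, a 1.31-fold rise (log2 fold change 0.39 ± 0.08, adjusted p = 0.00347 by edgeR).

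The ratio of Alpl to Enpp1 in TPM puts the opposed pair on 1 scale. It was 0.82, 1.01 and 0.807 in DMSO and 0.0474, 0.0561 and 0.0368 in DMSO+FGF2. The geometric mean thus went from 0.875 to 0.0461, a log2 difference of -4.25. In BGJ398 the ratio was 1.36, 1.58 and 1.95, and in BGJ398+FGF2 1.65, 1.58 and 1.40. The groups with inhibitor lay above DMSO whether or not FGF2 was given, with geometric means of 1.61 and 1.54. The ratio is a description of RNA levels with no test, and says nothing of enzyme activity or of pyrophosphate. Enpp1 TPM also includes transcripts that are not protein coding. By estimate, a transcript marked for nonsense-mediated decay held 0% to 5.62% of it in DMSO and 11.1% to 22.3% in DMSO+FGF2. That transcript held 0% to 3.06% in BGJ398 and 0% to 16.3% in BGJ398+FGF2. A transcript with a retained intron held 0% to 28.0% in DMSO and 0% to 9.18% in DMSO+FGF2. The main coding transcript lay at 4.68 to 5.41 TPM in DMSO and 8.59 to 9.48 in DMSO+FGF2. These estimates were not tested.

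**Figure D2:**
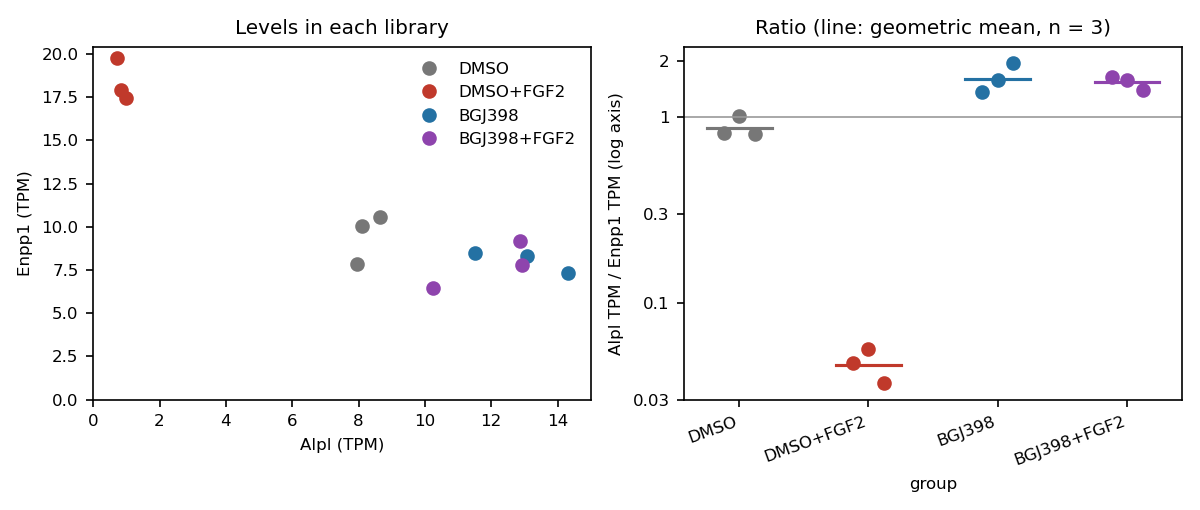
Left, Enpp1 against Alpl in TPM, with a point for each of 12 libraries. Right, the ratio of Alpl to Enpp1 in TPM on a log axis by group, with a line at the geometric mean. The 3 DMSO+FGF2 libraries stand apart at ratios of 0.0368 to 0.0561, and the 6 libraries with BGJ398 lie above the 3 DMSO libraries.

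Among phosphate importers the pair differed. Slc20a1 was at 63.5, 60.0 and 56.8 CPM in DMSO and at 74.6, 71.7 and 79.4 CPM in DMSO+FGF2, all higher, and rose 1.25-fold (log2 fold change 0.32 ± 0.06, adjusted p = 0.00316 by edgeR). Slc20a2 was at 62.9, 59.4 and 61.3 CPM in DMSO and at 55.1, 57.8 and 53.5 CPM in DMSO+FGF2. Its libraries did not overlap, but the difference did not pass the test (log2 fold change -0.14 ± 0.05, adjusted p = 0.11 by edgeR), with a 95% interval of the ratio from 0.836 to 0.983. Without the 3 deviating libraries, a choice made after the data were seen, its adjusted p was 0.0257.

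Of the matrix vesicle pair, Smpd3, the neutral sphingomyelinase, was at 2.58, 3.23 and 3.87 CPM in DMSO and at 1.41, 1.41 and 1.62 CPM in DMSO+FGF2. The groups did not overlap although each DMSO+FGF2 library had only 33 to 36 reads, and Smpd3 fell 2.20-fold (log2 fold change -1.14 ± 0.21, adjusted p = 0.0029 by edgeR). Prmt7, which overlaps Smpd3 on the opposite strand and is far more abundant, differed by -0.14 on the log2 scale (adjusted p = 0.255 by edgeR). Phospho1, the phosphocholine phosphatase, was at 42.6, 43.0 and 42.3 CPM in DMSO and at 44.4, 51.4 and 47.2 CPM in DMSO+FGF2 (log2 fold change 0.16 ± 0.08, adjusted p = 0.195 by edgeR). In TPM these groups overlapped, at 53.3 to 59.7 and 52.0 to 60.9. Its overlapping neighbours Zfp652 and Abi3 differed by -0.29 (adjusted p = 0.057) and -0.13 (adjusted p = 0.663) in the same edgeR fit.

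The next comparison gives FGF2 to cells already under BGJ398. None of the 7 genes passed, and none had groups free of overlap, where 0.00% of all genes passed and 6.31% had no overlap. Over all genes edgeR called 0, with 325 at an unadjusted p under 0.05, DESeq2 called 5 and limma-voom 0. Alpl differed by -0.11 ± 0.10 on the log2 scale, with a 95% interval of the ratio from 0.803 to 1.07. For Enpp1 that interval was 0.88 to 1.14. Both intervals exclude the ratios seen without inhibitor. Smpd3 had the widest interval, 0.597 to 1.04, with 2 of the 3 BGJ398+FGF2 libraries, at 3.87 and 5.45 CPM, under the lowest BGJ398 library at 5.89 and the other at 6.06. The members' median log2 fold change was -0.04.

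**Figure D3:**
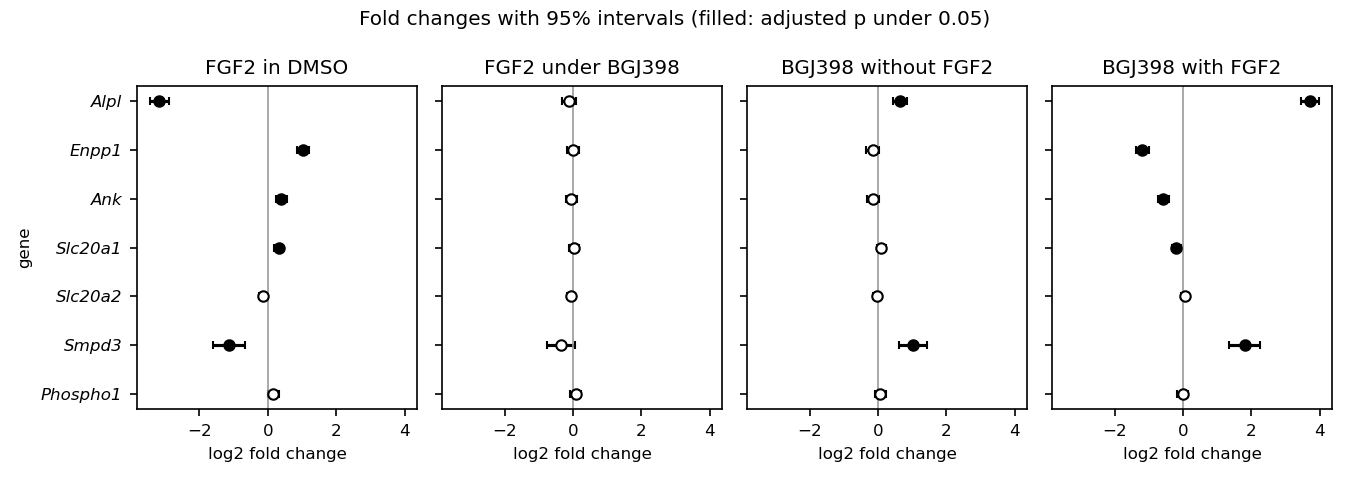
Log2 fold change with its 95% interval for each of the 7 genes in the comparisons named in the panels, filled where the adjusted p of edgeR's test is under 0.05. Alpl at -3.17 and Enpp1 at 1.03 mark the ends of the FGF2 effect in DMSO, and under BGJ398 no gene is filled.

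BGJ398 alone was compared with DMSO to ask what the inhibitor did without added FGF2. Alpl and Smpd3 were higher with inhibitor and the other 5 did not pass, against 0.327% of all genes called, 0.151% higher and 0.175% lower. These were also the members whose groups did not overlap, as for 17.2% of all genes. Alpl rose 1.56-fold (log2 fold change 0.65 ± 0.10, adjusted p = 0.0165 by edgeR). The Alpl call was lost, with adjusted p of 0.0535, 0.123 and 0.0969 without DMSO replicate 1, 2 or 3 and 0.0611 and 0.0967 without BGJ398 replicate 2 or 3. Smpd3, at 7.32, 5.89 and 6.42 CPM under BGJ398, rose 2.02-fold (log2 fold change 1.01 ± 0.19, adjusted p = 0.0417 by edgeR). That call held without BGJ398+FGF2 replicate 2 and was lost without any other single library, at adjusted p of 0.0506 to 0.218. Enpp1 (-0.15, adjusted p = 0.711), Ank (-0.14, adjusted p = 0.676), Slc20a1 (0.10, adjusted p = 0.784), Slc20a2 (-0.04, adjusted p = 0.94) and Phospho1 (0.07, adjusted p = 0.918) gave log2 fold changes near 0.

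With FGF2 present, BGJ398 was compared with vehicle. This comparison shares the DMSO+FGF2 libraries with the first, so its values are set beside those and are no independent evidence. Alpl was 13.1-fold higher with inhibitor (log2 fold change 3.71 ± 0.13, adjusted p = 1.89e-09 by edgeR, rank 1 by p) and Smpd3 3.48-fold higher (1.80 ± 0.21, adjusted p = 5.57e-05). Enpp1 (-1.19 ± 0.08, adjusted p = 6.42e-07), Ank (-0.58 ± 0.08, adjusted p = 0.000141) and Slc20a1 (-0.20 ± 0.06, adjusted p = 0.0351) were lower by the same test. In all 5 called of 7 the groups did not overlap, where 22.2% of all genes were called, 10.8% higher and 11.4% lower, and 34.8% had no overlap. The Slc20a1 call was lost without DMSO replicate 2 (adjusted p = 0.0562), DMSO+FGF2 replicate 1 (0.0762) or 3 (0.142), and BGJ398+FGF2 replicate 1 (0.102) or 3 (0.112). It was also lost with no filter on low counts (0.0569) and with only the 2 groups compared (0.0968). Prmt7 rose too, by 0.25 on the log2 scale (adjusted p = 0.0272 by edgeR), and its part in the Smpd3 value was not tested.

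Cells with both agents were set against plain DMSO. Alpl alone of the 7 passed, 1.45-fold higher (log2 fold change 0.54 ± 0.10, adjusted p = 0.0306 by edgeR), against 0.734% of all genes called, 0.351% higher and 0.383% lower. In 4 of 7 genes the groups did not overlap, as for 19.1% of all genes. The Alpl call was lost without DMSO replicate 1, 2 or 3 (adjusted p of 0.102, 0.139 and 0.146) or BGJ398+FGF2 replicate 1 or 3 (0.098 and 0.0677). Smpd3 was higher by 0.66 ± 0.19 on the log2 scale without passing (adjusted p = 0.145 by edgeR), and passed at 0.82 (adjusted p = 0.0159) without the 3 deviating libraries.

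Whether the FGF2 change itself differed under BGJ398 was tested as an interaction, which subtracts the response in vehicle from the response under inhibitor. It passed for Alpl (3.07 ± 0.16 on the log2 scale, adjusted p = 5.51e-07 by edgeR, rank 1 of 12542 by p), Enpp1 (-1.03 ± 0.12, adjusted p = 0.000242) and Ank (-0.43 ± 0.11, adjusted p = 0.038). These 3 of 7, 1 positive and 2 negative, stand beside 4.24% of all genes, 1.99% positive and 2.25% negative. By known role these 3 make, supply or split pyrophosphate, but no test set them against the other members. Which members passed also changed with the libraries and method used, as follows. The Ank call was lost without any 1 of 9 libraries: DMSO replicates 1 to 3 (adjusted p of 0.0964, 0.0685 and 0.0969), BGJ398 replicates 2 and 3 (0.0591 and 0.0857), DMSO+FGF2 replicates 1 to 3 (0.0886, 0.0724 and 0.0646) and BGJ398+FGF2 replicate 1 (0.106). It was also lost with length-scaled TPM (adjusted p = 0.0564). For Slc20a1 (-0.29 ± 0.09, adjusted p = 0.0841) and Smpd3 (0.79 ± 0.28, adjusted p = 0.152) the interaction did not pass with edgeR, so a difference between their responses is not shown. Both passed without BGJ398+FGF2 replicate 2 alone, at adjusted p of 0.0337 and 0.0396, and Slc20a1 also with DESeq2 (adjusted p = 0.0308). Without the 3 deviating libraries, a choice made after the data were seen, both passed as well, at adjusted p of 0.0107 and 0.0483 by edgeR. Slc20a2 (0.10, adjusted p = 0.585) and Phospho1 (-0.08, adjusted p = 0.775) gave small values.

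The rest of the pathway was described through 5 lists of 53 genes, 39 of them tested. With FGF2 in DMSO 8 rose and 5 fell, beside the 13.4% of all genes called. Of the pyrophosphate supply and ATP breakdown list, 7 of 10 were tested, with a median log2 fold change of 0.06. Enpp3, a relative of Enpp1, rose from 7.65 to 13.7 CPM (log2 fold change 0.84 ± 0.13, adjusted p = 0.000618 by edgeR), and Nt5e (CD73), which splits AMP to adenosine, fell from 16.8 to 12.2 CPM (-0.47 ± 0.13, adjusted p = 0.0313). Panx1, an ATP release channel, did not pass, and Abcc6, with 8 reads over 12 libraries, was too low to test. Among the other phosphate transporters, the sodium-coupled Slc34 family was at or near 0, with 0 reads for Slc34a1 and Slc34a3 and 3 for Slc34a2. Slc25a3, the mitochondrial phosphate carrier, was abundant at 309 CPM in DMSO and 327 in DMSO+FGF2 (log2 fold change 0.08 ± 0.05, adjusted p = 0.337 by edgeR). Of that list 3 of 7 were tested, with a median of 0.11. The scaffold Slc9a3r1 (NHERF1) rose (0.50 ± 0.08, adjusted p = 0.000623 by edgeR), and the exporter Xpr1 gave 0.11 (adjusted p = 0.533).

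Other alkaline phosphatases were at or near 0. Alpi and Alppl2 had 0 reads and Akp3 had 2 over 12 libraries. Among the genes that load zinc into such enzymes or attach lipid anchors, 1 of 8 tested of 11 passed: Pigk, a subunit of the GPI transamidase, fell (-0.30 ± 0.06, adjusted p = 0.00436 by edgeR), with a list median of -0.07. In phosphocholine and sphingomyelin turnover, 2 of 11 tested of 12 rose, with a median of 0.14. They were the choline kinase Chka (0.31 ± 0.06, adjusted p = 0.00243 by edgeR) and the sphingomyelin synthase Sgms2 (0.29 ± 0.08, adjusted p = 0.0252). The other sphingomyelinases Smpd1, Smpd2, Smpd4 and Smpd5 did not pass, and their difference from Smpd3 was not tested.

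Of the annexins and mineral-binding proteins, 7 of 10 tested of 13 passed, 4 higher and 3 lower, with a median of 0.05. Spp1 (osteopontin, an inhibitor of crystal growth) rose (log2 fold change 1.34 ± 0.08, adjusted p = 3.49e-07 by edgeR). Mgp (matrix Gla protein, an inhibitor of calcification) rose from 448 to 676 CPM (0.59 ± 0.08, adjusted p = 0.00016). The annexins Anxa2 and Anxa5 also rose. Sparc (osteonectin) fell (-0.70, adjusted p = 8.74e-07). Ibsp (bone sialoprotein, a nucleator of mineral) fell from 72 reads over 3 DMSO libraries to 1 over 3 DMSO+FGF2 libraries (adjusted p = 6.86e-05). Bglap (osteocalcin) fell from 76 reads to 28 (-1.41 ± 0.41, adjusted p = 0.0371 by edgeR). With inhibitor Bglap had 31 reads in BGJ398 (-1.07 against DMSO, adjusted p = 0.468) and 32 in BGJ398+FGF2. Its interaction did not pass (adjusted p = 0.241 by edgeR). Under BGJ398, FGF2 moved none of the 39 genes past the test, beside 0.00% of all genes. With FGF2 present, BGJ398 raised 6 and lowered 12 of the 39, beside 22.2% of all genes called. Without FGF2 it moved none past the test, beside 0.327% of all genes. The interaction passed for 8 of the 39, 3 positive and 5 negative, beside 4.24% of all genes. Those with the smallest adjusted p by edgeR were Spp1 (-1.3, adjusted p = 3.19e-05), Sparc (0.73, 4.62e-05), Ibsp (5.57, 0.001) and Mgp (-0.61, 0.00454). Slc9a3r1 (-0.50, 0.0193), Chka (-0.37, 0.0194), Enpp3 (-0.73, 0.0443) and Nt5e (0.70, 0.0467) followed.

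**Figure D4:**
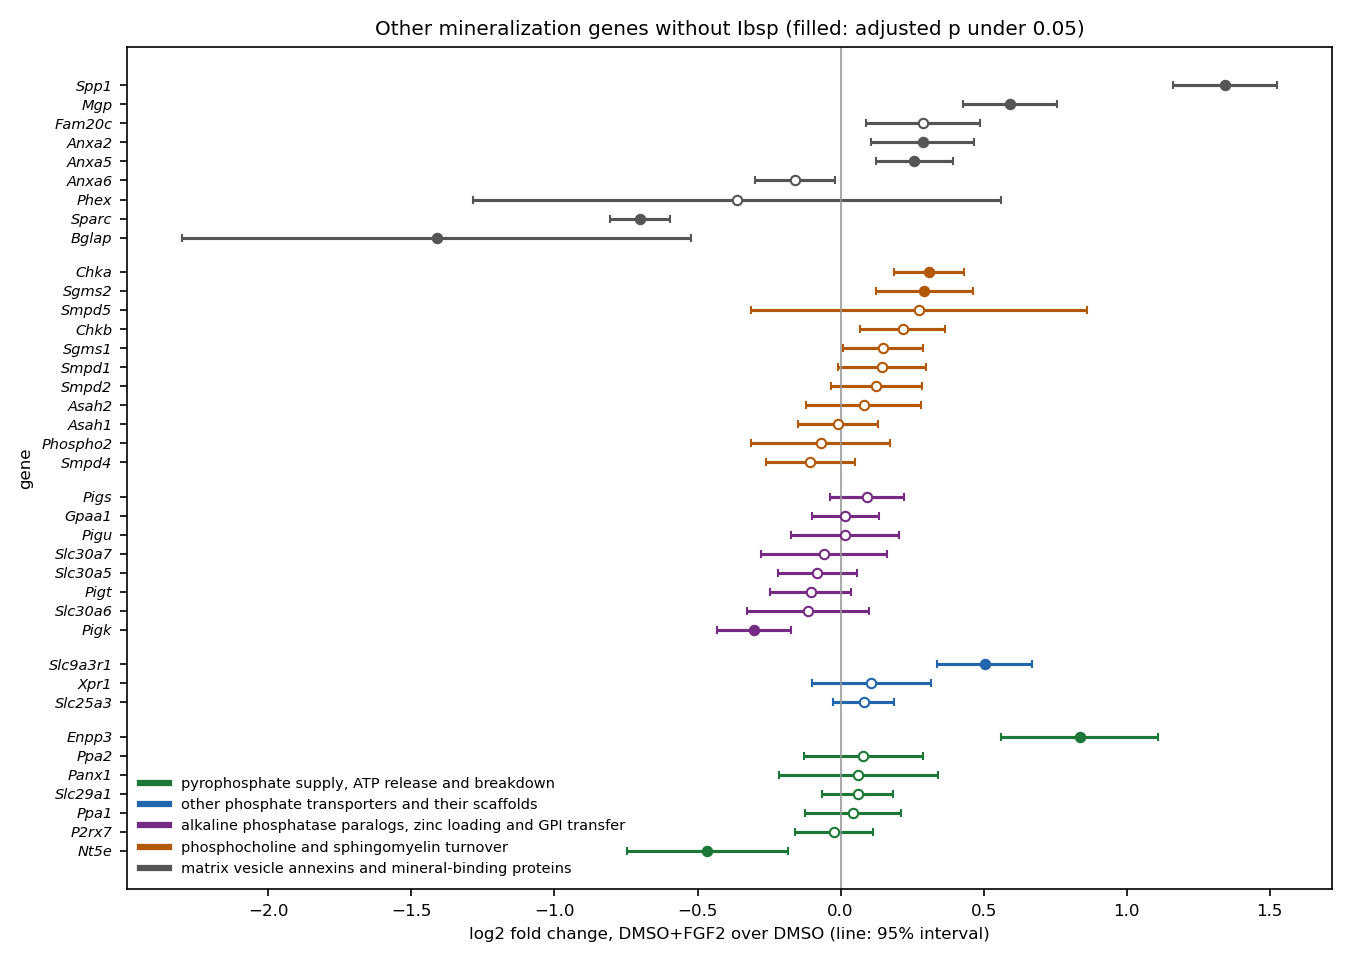
Log2 fold change with its 95% interval for tested genes of the 5 lists, DMSO+FGF2 over DMSO, filled where the adjusted p of edgeR's test is under 0.05 and coloured by list. Spp1 at 1.34 and Enpp3 at 0.84 rose and Nt5e at -0.47 fell. Ibsp, with 1 read in DMSO+FGF2, is not drawn.

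The genes whose pattern over the 12 libraries was most like that of Alpl, by the root-mean-square difference of centred log2 CPM among 10361 protein-coding genes, were Col27a1 (0.693), Eln (0.73), Hmcn1 (0.764), Npnt (0.776) and Tnc (0.833). These differences were larger than those of Enpp1, whose nearest genes were Eps8 (0.121), Hyou1 (0.121), Rhou (0.127), Lrrc32 (0.143) and Creld2 (0.15). The measure is not scaled to the size of a gene's change, which was larger for Alpl. It therefore cannot tell whether the pattern of Alpl is the less common of the pair. Eln, which encodes elastin, lay at 14.4 CPM in DMSO and 1.15 in DMSO+FGF2, but unlike Alpl it was at 9.14 CPM in BGJ398, under its DMSO level. Col27a1, a fibrillar collagen, lay at 11.3, 3.42, 15.2 and 14.6 CPM in DMSO, DMSO+FGF2, BGJ398 and BGJ398+FGF2.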

How the data were processed

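Polyadenylated RNA of 12 Ocy454 libraries was sequenced. Titles gave each sample its group and number. The submitters' processing notes name Salmon, without a version, and build GRCm39. How strand was handled is not given in the sources used here. Each deposited file lists 116178 transcripts with an expected count, a TPM value and an effective length in bases, per the file headers. The deposited TPM are corrected for length and scaled within each library. The deposited expected counts are estimated reads, not scaled. Here they were added up by gene and made whole. GENCODE M21 matched 114656 transcripts of 35214 genes, and the other 1522, with 0.499% to 0.641% of reads, were left out.

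Tests used edgeR 4.0.16 (R 4.3.3): filterByExpr by group, TMM scaling, then its quasi-likelihood test with a mean for each of 4 groups, 8 residual degrees of freedom, Benjamini-Hochberg adjustment over 12542 genes and a threshold of 0.05. Tests are 2-sided. Each SE is the size of the log2 fold change over the root of F, and 95% intervals use t on the residual plus the prior degrees of freedom. CPM are TMM-scaled, and log2 CPM used a prior count of 2. Depth was 18951710 to 27716975 reads, and the biological coefficient of variation was 8.49%. Pairs within groups varied at 3.21 to 24.8 times the Poisson expectation, more than repeated sampling of the same library would give. This cannot tell separate cultures from separate preparations of the same culture. The test was run on simulated data first.

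All 7 members were named whatever their test, with up to 4 called genes of each list by smallest p for FGF2 in DMSO. Anxa2, Anxa5, Bglap, Panx1, Xpr1, Slc25a3, the other sphingomyelinases and genes with few reads were named after their values were seen. The members and lists were chosen with earlier results of these data known. Alternatives were DESeq2 1.42.0 and its size factors, limma-voom (limma 3.58.1), no filter, length-scaled TPM, a replicate block, only the groups compared, and each library left out. Leaving out the 3 deviating libraries together was added after the data were seen.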

Additional observations from a re-analysis of the deposited data

Results flagged for a closer look

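For 3 genes the FGF2 change under BGJ398 differed from that in DMSO by the interaction test of edgeR (Benjamini-Hochberg adjusted). Alpl gave 3.07 on the log2 scale (adjusted p = 5.51e-07): all 3 DMSO+FGF2 libraries lay under all DMSO libraries, and the groups overlapped under BGJ398. Enpp1 gave -1.03 (adjusted p = 0.000242), with all 3 DMSO+FGF2 libraries above all others. Ank gave -0.43 (adjusted p = 0.038), a call that was lost without any of 9 single libraries, at adjusted p of 0.0591 to 0.106.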

How the results depend on the processing

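The 5 member calls for FGF2 in DMSO kept their direction and call in all 20 other settings, with Alpl between -3.32 and -3.07 and Enpp1 between 0.96 and 1.08. The log2 difference of the Alpl to Enpp1 ratio lay between -4.39 and -4.09. Causes of the shifts below were not tested. Members called for BGJ398 without FGF2 went from 2 to 1 with length-scaled TPM or the replicate block and 0 to 2 with a library left out. For BGJ398+FGF2 against DMSO the count of 1 became 0 with the replicate block or only the 2 groups compared, 2 without the 3 deviating libraries and 0 to 1 with a library left out. For the interaction 3 became 5 without those 3 libraries, 2 with length-scaled TPM, where Ank was lost, and 2 to 5 with a library left out. Length-scaled TPM also ended the Smpd3 call for BGJ398 without FGF2 (adjusted p = 0.0895), and only the 2 groups that of Alpl for BGJ398+FGF2 against DMSO (0.0911). For BGJ398 with FGF2 5 became 4 with no filter, the replicate block or only the 2 groups, where Slc20a1 was lost, and 4 to 5 with a library left out.

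Genes called overall for FGF2 in DMSO (1680) were 1018 to 2256 with a library left out (1052 and 1018 without DMSO replicate 2 or 3, 1086 without DMSO+FGF2 replicate 2) and 2611 without the 3 libraries. For FGF2 under BGJ398 (0) they were 6 with no filter, 5 with DESeq2, 1 with only the 2 groups, 4 without the 3 libraries and 0 to 1 with a library left out. For BGJ398 without FGF2 (41) they were 83 with no filter, 153 with DESeq2, 12 with length-scaled TPM, 21 with the replicate block, 64 with only the 2 groups, 730 without the 3 libraries and 9 to 104 with a library left out. For BGJ398 with FGF2 (2782) they were 1811 with length-scaled TPM, 1794 with only the 2 groups and 1948 to 3345 with a library left out. For BGJ398+FGF2 against DMSO (92) they were 173, 313, 40, 36, 13 and 861 with no filter, DESeq2, length-scaled TPM, the replicate block, only the 2 groups and without the 3 libraries, and 11 to 114 with a library left out. For the interaction (532) they were 825 with DESeq2, 348 with length-scaled TPM, 1038 without the 3 libraries and 328 to 956 with a library left out.

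Signs turned only for members that did not pass. For FGF2 under BGJ398, Enpp1 (0.0017) became -0.0022 with DESeq2 size factors or no filter, -0.0017 with DESeq2 or the replicate block, -0.023 with length-scaled TPM, -0.0072 with only the 2 groups and -0.057 to 0.056 with a library left out. Ank there was -0.12 to 0.033 with a library left out, and Slc20a1 -0.075 with length-scaled TPM, -0.025 without the 3 libraries and -0.0050 to 0.061 with a library left out. Phospho1 for BGJ398 with FGF2 became 0.074 with length-scaled TPM and -0.061 to 0.050 with a library left out, and its interaction 0.015 with length-scaled TPM.

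With the replicate block as a term the calls lost were Alpl (BGJ398+FGF2 against DMSO, adjusted p = 0.0622), Smpd3 (BGJ398 without FGF2, 0.0667) and Slc20a1 (BGJ398 with FGF2, 0.0572), all by edgeR. The main fit did not use the numbers to pair samples. The 18 same-numbered pairs had correlations of -0.146 to 0.239. The largest joined DMSO+FGF2 replicate 2 and BGJ398+FGF2 replicate 2, both among the deviating libraries. Differently numbered pairs were not set beside them, so whether the numbers pair the samples was not tested. Depth was lowest for Alpl and Smpd3 in DMSO+FGF2, at 23 to 37 and 33 to 36 reads per library.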

Other observations

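Salmon's split of reads within Ank gave values outside the comparisons above. The split also varied within Enpp1, described with its ratio to Alpl, and within Slc20a1, described below. A transcript with a retained intron (Ank-202) held 0% of Ank TPM in all 3 DMSO libraries and in DMSO+FGF2 replicates 1 and 2, and 11.6% in DMSO+FGF2 replicate 3. It held 9.72% to 11.9% in BGJ398 and 8.38% to 17.8% in BGJ398+FGF2. These shares are estimates of read allocation between overlapping transcripts and were not tested.

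The ratio of Slc20a1 to Slc20a2 in TPM, formed after the data were seen, lay at 1.34 to 1.52 in DMSO, 1.83 to 2.38 in DMSO+FGF2, 1.43 to 1.80 in BGJ398 and 1.45 to 1.60 in BGJ398+FGF2. The DMSO+FGF2 libraries lay above the other 9. The ratio was not tested. Slc20a1 TPM includes transcripts with a retained intron. The 1 with the most reads (399.2 over 12 libraries) was estimated at 4.4, 6.61 and 3.57 TPM in DMSO. It was at 15.86, 3.28 and 10.05 in DMSO+FGF2, 4.99, 9.49 and 0 in BGJ398 and 0, 2.24 and 4.83 in BGJ398+FGF2. The main coding transcript lay at 30.25 to 32.14 TPM in DMSO and 33.54 to 37.68 in DMSO+FGF2. With inhibitor it lay at 33 to 35.42 in BGJ398 and 33.2 to 35.77 in BGJ398+FGF2, overlapping DMSO+FGF2.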
